A study of Mus musculus with 12 samples.

Results

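The 10 genes described here encode proteins that neutrophils store in their cytoplasmic granules. They were taken by gene name from the deposited colon and blood tables. All 10 were in the blood table and 8 of 10 in the colon table, out of 53801 genes in the series. Elane and Ctsg had no count in any colon library and were not in the colon table. Of these, 4 belong to the primary (azurophil) granules: Mpo encodes myeloperoxidase, and Elane, Prtn3 and Ctsg encode the serine proteases neutrophil elastase, proteinase 3 and cathepsin G. The other 6 are treated as secondary granule genes. Ltf encodes lactoferrin, Camp the cathelicidin antimicrobial peptide, Ngp neutrophilic granule protein, Chil3 a chitinase-like protein, Lcn2 the siderophore-binding lipocalin 2, and Mmp8 neutrophil collagenase.

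Granule proteins are made in the order in which the precursors of a neutrophil mature in the bone marrow. Primary granule genes are transcribed in promyelocytes, secondary granule genes later, in myelocytes and metamyelocytes, and most of these transcripts are low in circulating mature neutrophils, which already carry the proteins. Some of the genes are also used by other cells, since Ltf and Lcn2 are expressed by several epithelia and Chil3 by monocytes and macrophages.

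The study profiled colon and blood of the same 6 male C57BL/6 mice by RNA sequencing. The mice were 8 weeks old, the treated ones drank 1.5% dextran sulfate sodium (DSS) for 7 days as a model of ulcerative colitis (UC), the others drank water only, and all were killed on day 8. The 6 mice were selected from a larger set by their disease activity. Labels name mice 1, 2 and 4 as UC and mice 7, 8 and 9 as control, which gives 3 libraries per label in each tissue. DSS colitis is an acute chemical injury of the colon, and whole tissue and whole blood were sequenced, so that fewer neutrophils and less RNA per neutrophil cannot be told apart. Each library came from a single mouse.

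The disease labels were at odds with the data and with the study's own description of the mice. The study elsewhere marks mice 1, 7 and 9 as the DSS-treated animals. S100a8, a calprotectin subunit of mature neutrophils, had normalized counts in colon of 5370, 33.1 and 22.3 in mice 1, 2 and 4 (labelled UC), against 1888, 75.6 and 13337 in mice 7, 8 and 9 (labelled control). The 3 high libraries were therefore those of mice 1, 7 and 9. Its partner S100a9 gave the same order, with 5434, 2137 and 18061 in mice 1, 7 and 9 and at most 130 in the other mice. Groups were kept as labelled, every test of treatment below concerns the labels, and each gene is given in every library. The tissue fields conflicted too, and the one used matched the markers: the epithelial keratin gene Krt8 had at least 303492 normalized counts in each colon library and at most 75.3 in blood, and the erythroid gene Alas2 at least 3828109 in blood and at most 3820 in colon. Total counts ran from 80867247 to 142536804 in blood and from 69181049 to 103662306 in colon, and 3 counts, the upper limit that a count of 0 allows, came to 2.3 to 4.52 normalized counts. The counts are estimates rather than numbers of reads, so such limits are approximate and cover counting error only.

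The genes lie on 6 chromosomes, all coordinates here being GRCm38. Prtn3 and Elane are neighbours on chromosome 10, 3.072 kb apart on the same strand. Camp, Ngp and Ltf fall within 1.17 Mb of chromosome 9 (570.129 kb from Camp to Ngp and 596.258 kb from Ngp to Ltf), and Mmp8 is on the same chromosome, 102.2789 Mb from Camp. Mpo is on chromosome 11, Ctsg on 14, Chil3 on 3 and Lcn2 on 2. The start regions of the 4 primary genes and of 2 secondary genes are shown because granule genes are known to be driven by myeloid factors. These factors include the ETS factor PU.1 (gene Spi1), which binds a GGAA core, and the C/EBP proteins. Each runs 5′ to 3′ on the gene's strand, from 250 bases before to 50 bases after the RefSeq start (GRCm38.p6), and capitals mark AGGAAGT, searched on both strands.
Mpo, chr11:87793534-87793833, plus strand: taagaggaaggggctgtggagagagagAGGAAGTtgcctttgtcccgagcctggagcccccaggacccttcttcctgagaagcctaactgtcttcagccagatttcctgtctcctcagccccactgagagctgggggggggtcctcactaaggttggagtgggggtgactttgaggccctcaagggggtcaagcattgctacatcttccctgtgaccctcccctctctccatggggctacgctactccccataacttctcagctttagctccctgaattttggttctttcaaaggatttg
Elane, chr10:79886062-79886361, plus strand: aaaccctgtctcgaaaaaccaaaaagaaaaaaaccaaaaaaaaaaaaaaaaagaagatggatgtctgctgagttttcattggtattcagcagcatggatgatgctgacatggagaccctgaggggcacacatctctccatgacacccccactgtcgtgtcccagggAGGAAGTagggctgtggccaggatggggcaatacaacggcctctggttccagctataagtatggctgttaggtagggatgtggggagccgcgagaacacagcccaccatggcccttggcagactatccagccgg
Prtn3, chr10:79879417-79879716, plus strand: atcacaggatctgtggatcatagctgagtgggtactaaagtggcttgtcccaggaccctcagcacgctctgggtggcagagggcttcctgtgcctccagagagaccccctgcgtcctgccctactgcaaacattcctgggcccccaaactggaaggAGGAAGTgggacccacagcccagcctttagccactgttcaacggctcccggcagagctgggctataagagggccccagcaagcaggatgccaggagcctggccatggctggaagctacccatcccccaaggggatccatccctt
Ctsg, chr14:56102525-56102824, minus strand: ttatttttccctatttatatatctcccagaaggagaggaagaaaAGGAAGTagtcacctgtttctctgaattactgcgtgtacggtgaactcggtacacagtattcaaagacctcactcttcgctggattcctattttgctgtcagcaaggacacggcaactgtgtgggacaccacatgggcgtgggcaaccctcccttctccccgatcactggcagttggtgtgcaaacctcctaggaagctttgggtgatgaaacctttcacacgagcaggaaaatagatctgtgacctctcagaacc
Ltf, chr9:111019042-111019341, plus strand: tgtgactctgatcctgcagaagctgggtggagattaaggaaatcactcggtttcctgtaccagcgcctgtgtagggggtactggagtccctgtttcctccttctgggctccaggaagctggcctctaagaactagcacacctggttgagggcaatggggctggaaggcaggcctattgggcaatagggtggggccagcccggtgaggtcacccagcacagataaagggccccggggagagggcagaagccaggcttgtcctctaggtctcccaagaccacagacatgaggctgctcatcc
Camp, chr9:109849407-109849706, minus strand: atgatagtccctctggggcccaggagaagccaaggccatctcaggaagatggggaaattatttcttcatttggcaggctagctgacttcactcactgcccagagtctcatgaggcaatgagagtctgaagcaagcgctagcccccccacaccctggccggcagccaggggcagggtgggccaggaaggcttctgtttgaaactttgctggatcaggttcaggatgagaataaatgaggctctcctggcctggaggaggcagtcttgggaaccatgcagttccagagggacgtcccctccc

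All 10 genes had a RefSeq start region of this length. AGGAAGT was present in 6 of 10, namely in all 4 primary genes and in Chil3 and Mmp8, and in 9.35% of 32851 start regions. In the primary genes it stood on the gene's own strand, between 77 and 216 bases before the start. This word was chosen after the sequences had been seen. Ltf and Camp, the secondary genes printed above, lack it, whereas Chil3 and Mmp8 carry it and are not printed. TTNNGNAA, a form of the C/EBP site, was present in 5 of the 6 secondary genes (Ltf, Ngp, Chil3, Lcn2 and Mmp8), in 0 of the 4 primary genes and in 40.7% of all start regions. TATAA was present in 5 of 10 and in 24.9% of all. These are matches of letters and no binding was measured.

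Transcripts of the primary granule genes were close to absent in every library. Mpo, whose product makes hypochlorous acid, had normalized counts (counts divided by the authors' size factor for that library) in blood of 77.9, 7.53 and 2.45 in mice 1, 2 and 4, against 4.59, 0 and 9.10 in mice 7, 8 and 9. In colon it had 2.84, 0 and 9.07 in mice 1, 2 and 4 and 11.4, 0 and 0 in mice 7, 8 and 9. Only the blood of mouse 1 was well above the others. The 9.07 of mouse 4 and the 11.4 of mouse 7 in colon came from counts of 11 and 9.

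Elane, the elastase gene, was counted in a single library, the blood of mouse 1, with a count of 18 or 19.0 normalized counts. Ctsg, a chymotrypsin-like protease gene, had normalized counts in blood of 19.0, 0 and 5.73 in mice 1, 2 and 4, against 7.66, 0 and 13.2 in mice 7, 8 and 9. Ctsg was thus found in the blood of 4 mice and in no colon library. Its mean level in blood, as CPM (reads scaled to library size) after scaling by the trimmed mean of M values (TMM), was 0.139, at least 8.24-fold higher than what 3 counts per library in colon would give. This limit holds under TMM scaling only. With library size as the only scaling, the median log2 fold change of all genes, blood over colon, moved from -0.459 to -2.57.

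Prtn3 departed from its neighbour Elane. Its normalized counts in blood were 62.1, 16.6 and 0 in mice 1, 2 and 4 and 3.06, 0 and 0 in mice 7, 8 and 9. In colon they were 39.8, 0 and 0 in mice 1, 2 and 4 and 36.7, 0 and 45.9 in mice 7, 8 and 9. In colon it was therefore present in mice 1, 7 and 9 and listed at 0 in mice 2, 4 and 8. The annotated (GENCODE) 5′ end of Prtn3 overlaps that of Plppr3 on the opposite strand, from base 79874476 to base 79874634. This start lies 5191 bases before the RefSeq start of the Prtn3 region printed above. The counting was not stated to use strand. In the same colon libraries (mice 1, 7 and 9) Plppr3 reached 195, 137 and 148 normalized counts, and it stood at 38.3, 61.9 and 45.4 where Prtn3 was at 0. Reads of these genes could not be told apart where they overlap, and the part of Plppr3 in the Prtn3 values was not tested.

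The secondary granule genes carried nearly all of the granule signal. Mmp8, the collagenase gene, had normalized counts in blood of 24725, 1013 and 1137 in mice 1, 2 and 4, against 3204, 820 and 8268 in mice 7, 8 and 9. The lowest and the highest library differed 30.1-fold, and mice 1, 9 and 7 led in that order. In colon it had 239, 0 and 7.42 in mice 1, 2 and 4 and 193, 0 and 1964 in mice 7, 8 and 9, again with mice 1, 7 and 9 above the rest.

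Lcn2 had normalized counts in blood of 9234, 169 and 170 in mice 1, 2 and 4, against 774, 182 and 1887 in mice 7, 8 and 9. In colon it had 1248, 96.7 and 99.8 in mice 1, 2 and 4 and 1208, 117 and 9155 in mice 7, 8 and 9. Mice 2, 4 and 8 lay within a narrow range in each tissue, while the other 3 were higher and widely spread.

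Chil3 was the member with the least spread in blood. Its normalized counts there were 7964, 2289 and 2239 in mice 1, 2 and 4 and 2890, 1457 and 2296 in mice 7, 8 and 9, a 5.47-fold range, and mice 2, 4 and 9 were all but equal. In colon it had 1565, 11.3 and 23.1 in mice 1, 2 and 4 and 546, 3.78 and 3196 in mice 7, 8 and 9, an 845-fold range. Of the 50-base stretches in Chil3 transcripts, 26.89% also occur in transcripts of other genes, 16.88% in those of its close relative Chil4, so that a part of its reads is uncertain. Chil4 itself had at most 13.5 normalized counts in any library.

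Ltf was the member with the highest median per kb of exon in colon. Its normalized counts there were 3509, 27.0 and 75.9 in mice 1, 2 and 4 and 2500, 27.7 and 4080 in mice 7, 8 and 9. In blood they were 2825, 111 and 71.2 in mice 1, 2 and 4 and 302, 136 and 131 in mice 7, 8 and 9. In blood mouse 9 was not above mouse 8 for Ltf, although Mmp8 was at 8268 there against 820 in mouse 8.

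Camp and Ngp were mainly genes of mouse 1 blood. Camp had normalized counts in blood of 632, 0 and 22.1 in mice 1, 2 and 4, against 69.7, 49.4 and 45.5 in mice 7, 8 and 9. Camp was counted in a single colon library, that of mouse 9, at 28.8. Ngp, a cystatin-like granule protein gene, had in blood 2019, 0 and 19.6 in mice 1, 2 and 4 and 60.5, 27.6 and 124 in mice 7, 8 and 9. In colon Ngp had 42.6, 0 and 4.95 in mice 1, 2 and 4 and 10.1, 0 and 297 in mice 7, 8 and 9.

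**Figure D1:**
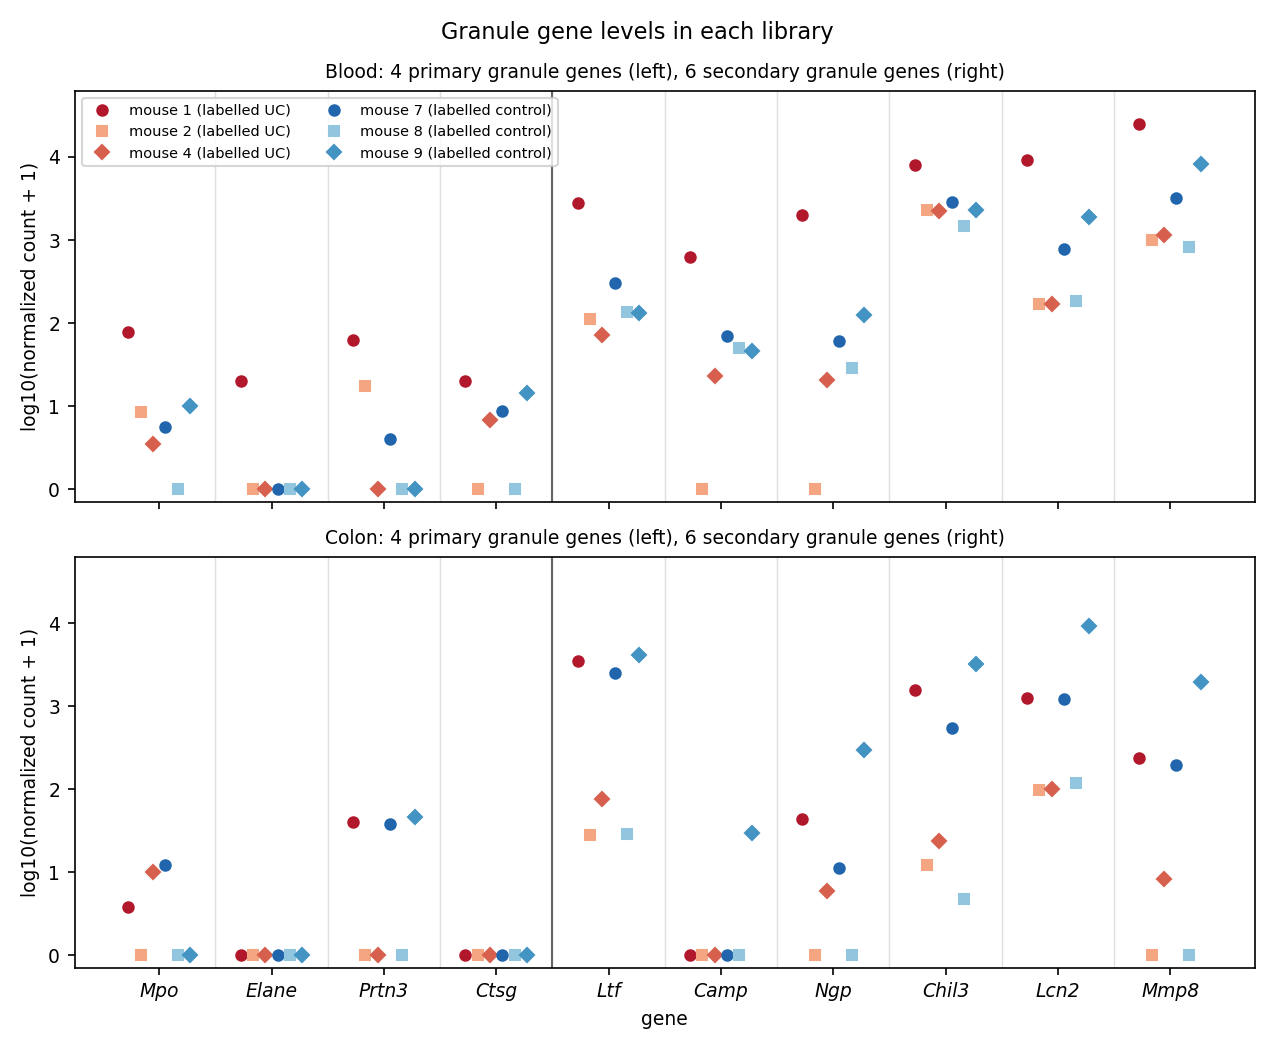
Normalized counts of the 10 granule genes on a log10 scale after adding 1, in blood (top) and colon (bottom), with one point per mouse (red shades labelled UC, blue shades labelled control). Mouse 1 is highest for all 10 genes in blood, and mice 1, 7 and 9 are the 3 highest for Prtn3, Ltf, Ngp, Chil3, Lcn2 and Mmp8 in colon; blood and colon were scaled separately by the authors.

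The 3 highest values of a gene fell in mice 1, 7 and 9 for 6 of the 10 members in colon and for 5 of the 10 in blood (Ctsg, Ngp, Chil3, Lcn2 and Mmp8). Those were 6 of the 6 members tested in colon and 5 of the 7 tested in blood. Members left out of the tests by a filter on low counts did not have this order. Mpo, for 1, was highest in mice 1, 4 and 7 in colon and in mice 1, 2 and 9 in blood. Prtn3 passed the filter in colon with counts in mice 1, 7 and 9 only, so the filter shapes the tested share. Among all tested genes that order held for 18.2% of 22238 in colon and 11.8% of 16759 in blood. These counts describe the libraries, and no test was made on mice grouped by their values. The mature neutrophil genes S100a8 and S100a9 had the same 3 mice on top in both tissues. Their colon values were already used above to point out these mice, so their order in colon is no separate result. In blood S100a9 was highest in mouse 1 (257975 normalized counts against 201512 in mouse 9), as were all 10 granule genes, whereas S100a8 was slightly higher in mouse 9 (101913 against 88578).

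Set per kb of exon, levels in blood fell in the order Chil3 (median over 6 libraries 1405 normalized counts per kb), Mmp8 (895), Lcn2 (182), Camp (62.6), Ltf (38.6), Ngp (36.0), Ctsg (6.48), Mpo (1.77), Prtn3 (0.884) and Elane (0). Each step between neighbours in this order was smaller than the SD over libraries of the higher gene. In colon the order was Ltf (373), Lcn2 (253), Chil3 (174), Mmp8 (41.4), Prtn3 (10.6), Ngp (6.16) and Mpo (0.415), with Camp, Elane and Ctsg at a median of 0. Here too no neighbours differed by more than that SD.

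The make-up of the granule signal differed between the tissues of every mouse. Of the summed counts per kb of exon of the 10 genes, Chil3 and Mmp8 together made up the bulk in all 6 blood libraries, with Chil3 at 22.2% to 72.7% and Mmp8 at 21.7% to 59.3%. Ltf made up 0.659% to 3.72% there. In colon Ltf made up 14.6% to 44.4% and Lcn2 18.2% to 81.2%, whereas Mmp8 reached at most 10.5%. The 4 primary genes together gave 0% to 0.61% of the signal in blood. In colon they gave 0% to 3.16%, and the highest of these, in mouse 4, rested on a count of 11 among 267 (4.12%, 95% Wilson interval 2.32% to 7.23%). That interval treats the estimated counts as independent reads and may be too narrow. In mouse 8 the primary genes had no count among 2325 granule counts in blood, which allows a share of up to about 0.129% under the same treatment of counts.

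**Figure D2:**
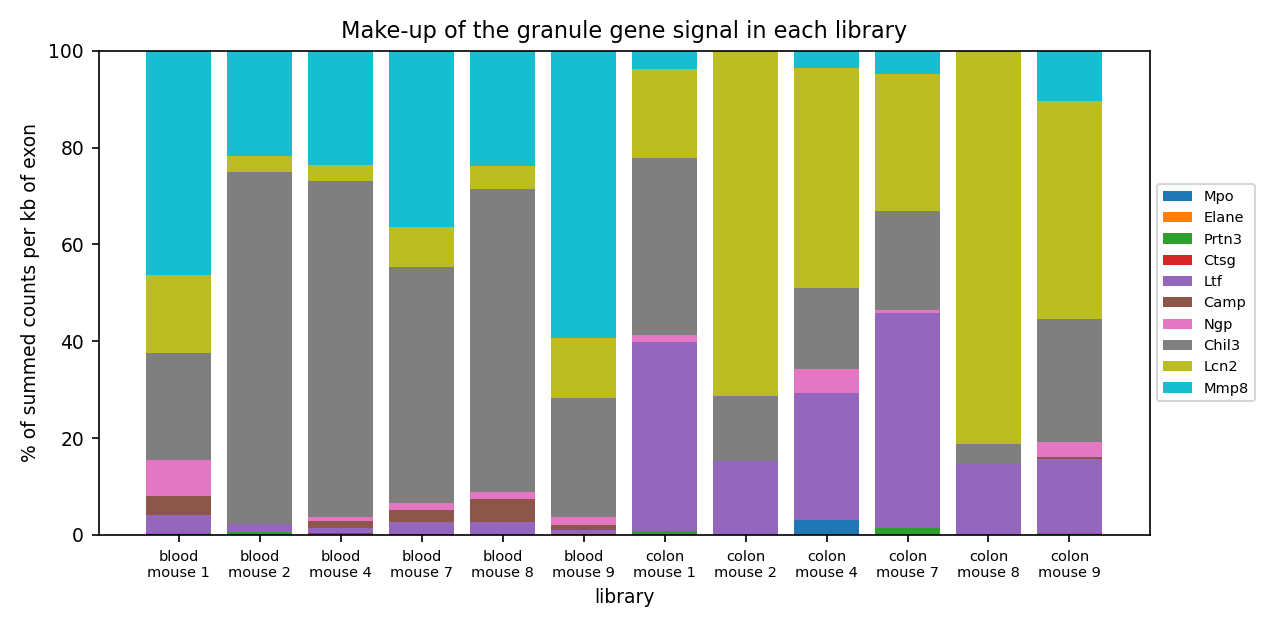
Share of each gene in the summed counts per kb of exon of the 10 granule genes, in percent, with one bar per library (6 blood, 6 colon). Chil3 and Mmp8 fill most of each blood bar, and Ltf, Lcn2 and Chil3 most of each colon bar.

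Blood and colon were compared with edgeR's quasi-likelihood test over 23258 genes, 8 of the 10 members among them (Elane and Ctsg did not pass the filter on low counts). This main fit used the groups of label by tissue and did not pair the 2 libraries of a mouse. Pairing, with the mouse as a replicate block, was an alternative, and it changed the calls of Mpo and Lcn2 as given below. A gene was called at an adjusted p of at most 0.05 and an absolute log2 fold change over 1. In all, 5 members were called, all higher in blood: Camp, Mmp8, Ngp, Chil3 and Mpo. Of all tested genes 20.8% were called higher in blood and 37.7% higher in colon, and the median log2 fold change of all genes was -0.46, to which the values below are to be related. Camp was 8.02 higher in blood on the log2 scale (SE 1.86, edgeR adjusted p 0.0038), which rests on a count of 32 in a single colon library. Mmp8 was 6.36 higher (SE 1.73, edgeR adjusted p 0.00661) and Ngp 4.16 (SE 1.65, edgeR adjusted p 0.041). Chil3 was 3.61 higher (SE 1.33, edgeR adjusted p 0.03) and Mpo 3.27 (SE 1.28, edgeR adjusted p 0.0388).

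The calls differed in how much they rested on single mice. Camp and Mmp8 were called in all 6 fits that left out 1 mouse. Chil3 was called in 3 of the 6, Mpo and Ngp in 2 of the 6. Without mouse 1 the log2 fold change of Mpo was 1.85 and that of Ngp 2.43 (edgeR adjusted p 0.263 and 0.172). Without mouse 7 that of Chil3 was 3.30 (edgeR adjusted p 0.103). Without the filter on low counts, Mpo and Ngp were at an edgeR adjusted p of 0.052 and 0.0507, and Ctsg, which then entered the test, was called higher in blood (edgeR adjusted p 0.00496). Ctsg passed the filter and was called in 4 of the fits that left out 1 mouse, those without mouse 2, 4, 7 or 8. DESeq2 called Mpo, Camp, Chil3 and Mmp8 and gave no p for Ngp. With the mouse as a replicate block, Mpo was no longer called (log2 fold change 3.56, edgeR adjusted p 0.0798). Mmp8 and Chil3 were higher in blood in 6 of 6 mice, Camp, Ngp and Lcn2 in 5 of 6, in TMM-scaled CPM. Among all tested genes 23.9% were higher in blood in all 6 mice. With library size as the only scaling, Mpo, Ngp and Chil3 lost their call (1.22, 1.97 and 1.44) and the median of all genes was -2.57, with 8.9% of the called genes higher in blood instead of 35.6%.

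Lcn2, Ltf and Prtn3 were not called. Lcn2 had a log2 fold change of 2.14 (SE 1.27, edgeR adjusted p 0.152), and with the replicate block it was called as higher in blood (2.07, edgeR adjusted p 0.0164). Its exception was mouse 9, with 50.7 TMM-scaled CPM in colon and 34.2 in blood. Ltf had a log2 fold change of -0.18 (SE 1.29, edgeR adjusted p 0.907), and it was higher in blood in 4 mice and higher in colon in mice 7 and 9. Prtn3 had -0.08 (SE 1.24, edgeR adjusted p 0.957), and 2 standard errors to either side reached from -2.57 to 2.40.

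**Figure D3:**
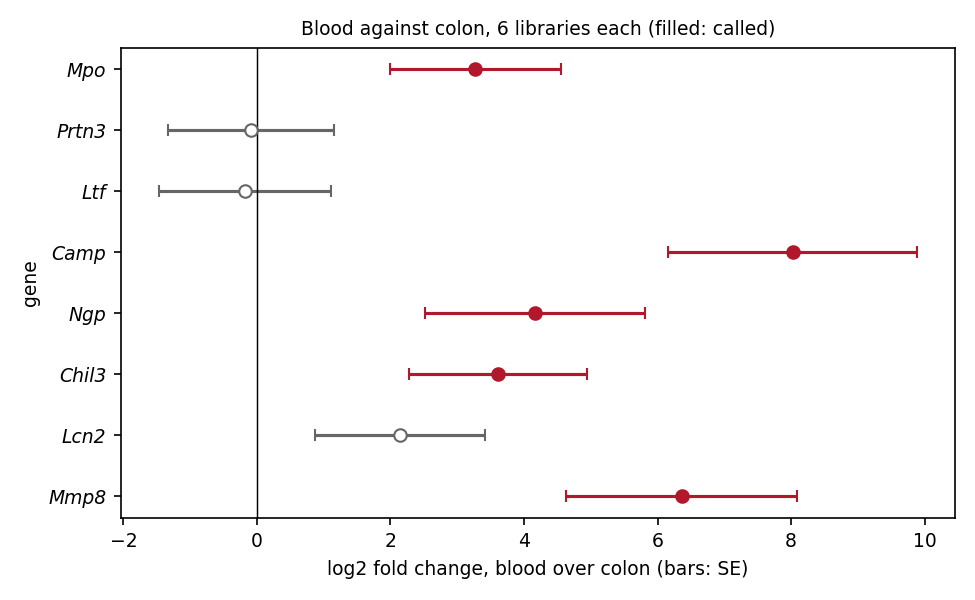
Log2 fold change of blood over colon for the 8 granule genes tested (x axis), with bars for the standard error and filled red points for the genes called. Camp (8.02) and Mmp8 (6.36) lie farthest to the right, and Ltf (-0.18) and Prtn3 (-0.08) lie at 0.

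Ratios of genes within a library do not depend on the scaling between tissues. The following 4 ratios were chosen after the values had been seen, so their p-values describe these data and are no independent support. The adjustment over 4 ratios leaves out the other pairs that could have been chosen. In blood, Ltf had a lower count than Mmp8 in every mouse, with a ratio of 0.114, 0.11 and 0.0626 in mice 1, 2 and 4, against 0.0944, 0.165 and 0.0158 in mice 7, 8 and 9. In colon the Ltf count was higher, 14.7, 10.2, 12.9 and 2.08 times that of Mmp8 in mice 1, 4, 7 and 9. It was at least 10.3 and 7.33 times as high in mice 2 and 8, where Mmp8 had no count. The tissues did not overlap. On the log2 scale with 0.5 added to each count the ratio was higher in colon than in blood by 7.61 ± 0.86 (SD, n = 6 mice; exact two-sided sign-flip permutation test, p = 0.03125, the smallest it can give with 6 mice, adjusted p = 0.0417 over 4 ratios).

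Lcn2 behaved in the same way against Mmp8. Its ratio to Mmp8 was 0.15 to 0.373 in the 6 blood libraries, 4.66 to 13.4 in the colon of mice 1, 4, 7 and 9, and at least 37.0 and 31.0 in mice 2 and 8. The log2 difference was 6.56 ± 2.85 (SD, n = 6; same exact test, p = 0.03125, adjusted p = 0.0417). In mice 2 and 8 it depends on the 0.5 added to an Mmp8 count of 0, and without these mice it was 4.82, where 4 mice cannot reach the threshold. With 0.5 added to each count, Chil3 to Mmp8 was also higher in colon in 6 of 6 mice, by 2.45 ± 1.35 on the log2 scale (SD, n = 6; same exact test, p = 0.03125, adjusted p = 0.0417), but blood and colon values overlapped. In mouse 8 the direction depends on the 0.5 added. Its colon counts were 3 for Chil3 and 0 for Mmp8, a ratio of at least 1.0, against 1.78 in its blood. The p-value needs the same direction in all 6 mice. Lcn2 to Ltf was higher in colon in only 2 of 6 mice (mean log2 difference -1.05 ± 2.08, SD, n = 6; same exact test, p = 0.281, adjusted p = 0.281).

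**Figure D4:**
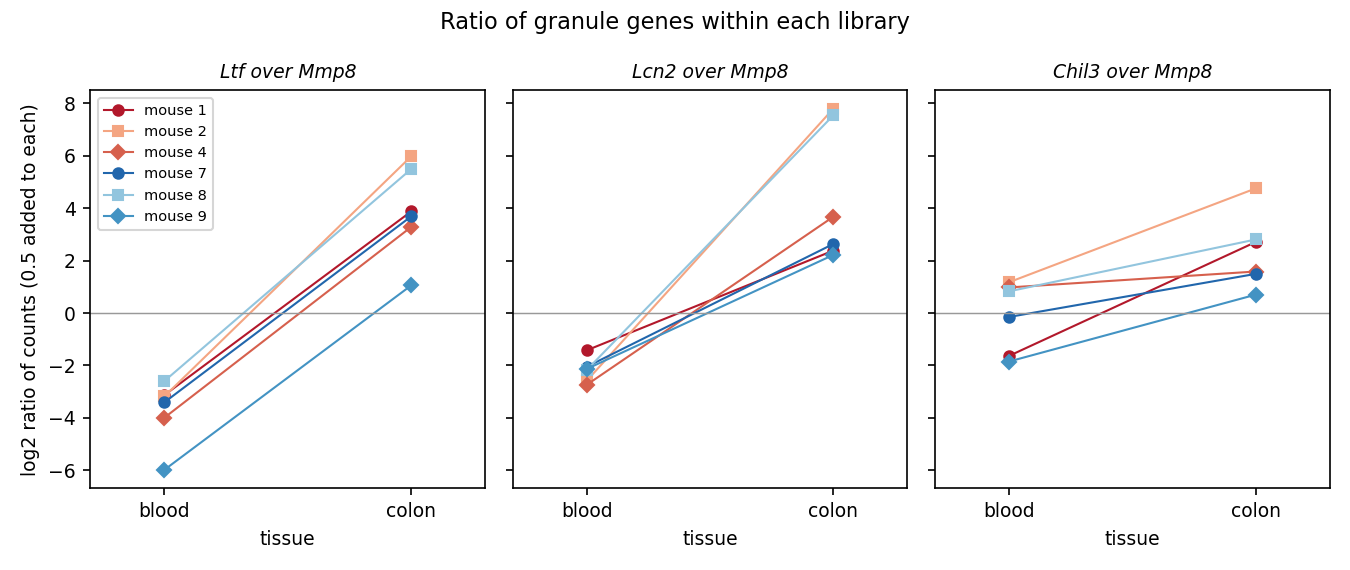
Log2 ratio of the counts of Ltf, Lcn2 and Chil3 to those of Mmp8 within each library (y axis, 0.5 added to each count), with a line joining the blood and colon of each mouse. All lines rise from blood to colon, that of Chil3 in mouse 8 only through the 0.5 added to an Mmp8 count of 0. For Ltf and Lcn2 every blood value lies below 0 and every colon value above 0.

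The comparison of the labels, UC against control, called no member in either tissue. In blood 7 members were tested among 16759 genes. All 7 were higher in the libraries labelled UC, from 0.23 for Ctsg (SE 1.38) to 3.25 for Ngp (SE 1.84) on the log2 scale, with an edgeR adjusted p of 0.9998 for each. Ltf was 2.39 higher (SE 1.26), Camp 1.97 (SE 1.47), Lcn2 1.75 (SE 1.49), Mmp8 1.13 (SE 1.26) and Chil3 0.90 (SE 0.524). Their median was 1.75 and that of all genes 0.036. Of all genes, 0.0% were called (0 by edgeR, 6 by DESeq2, 241 at an unadjusted p under 0.05, no member among them).

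These differences rested on mouse 1. Without it, 6 of the 7 turned to lower in the libraries labelled UC, Ngp to -2.69, Lcn2 to -2.47, Camp to -2.18, Mmp8 to -1.91, Ctsg to -1.12 and Ltf to -1.07, and Chil3 was at 0.04 (edgeR adjusted p 0.996 for Ngp). Mmp8 had a mean of 8959 ± 13655 normalized counts (SD, n = 3) in the libraries labelled UC and 4097 ± 3804 (SD, n = 3) in those labelled control. The labelled groups overlapped for all 7 members, and groups that do not overlap were found for 6.5% of all tested genes.

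In colon 6 members were tested among 22238 genes, and all 6 were lower in the libraries labelled UC. The log2 fold changes were -3.13 for Mmp8 (SE 2.46), -2.85 for Lcn2 (SE 1.67), -2.69 for Ngp (SE 2.13), -1.22 for Chil3 (SE 2.18), -1.07 for Prtn3 (SE 1.96) and -0.87 for Ltf (SE 1.96), with an edgeR adjusted p of 0.9999 for each. Their median was -1.96 and that of all genes -0.0069. Lcn2 had a mean of 482 ± 664 normalized counts (SD, n = 3) in the libraries labelled UC and 3493 ± 4933 (SD, n = 3) in those labelled control. These values rested on single mice. Without mouse 9, Ngp turned to 1.58 and Chil3 to 0.92, and Lcn2, Mmp8 and Ltf were at -0.50, -0.28 and -0.11. Without mouse 1 they were further from 0, with -7.81 for Prtn3, -7.53 for Mmp8, -6.16 for Chil3, -5.42 for Ltf and -5.14 for Lcn2. None of these was called. The labelled groups overlapped for all 6 members (5.67% of all genes did not), and 0.0045% of all genes were called, a single one.

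The difference of the label effect between the tissues was tested in one model over 12 libraries. None of the 8 members tested passed, with an edgeR adjusted p of 1.0 for each, and 0.0043% of all genes were called, 1 of 23258. All 8 values were below 0 (a lower label effect in colon than in blood), from -2.13 for Chil3 (SE 2.42) to -7.78 for Camp (SE 3.56). Without mouse 9 these were -0.0057 for Chil3 and -1.87 for Camp. With the replicate block no gene was called.

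**Figure D5:**
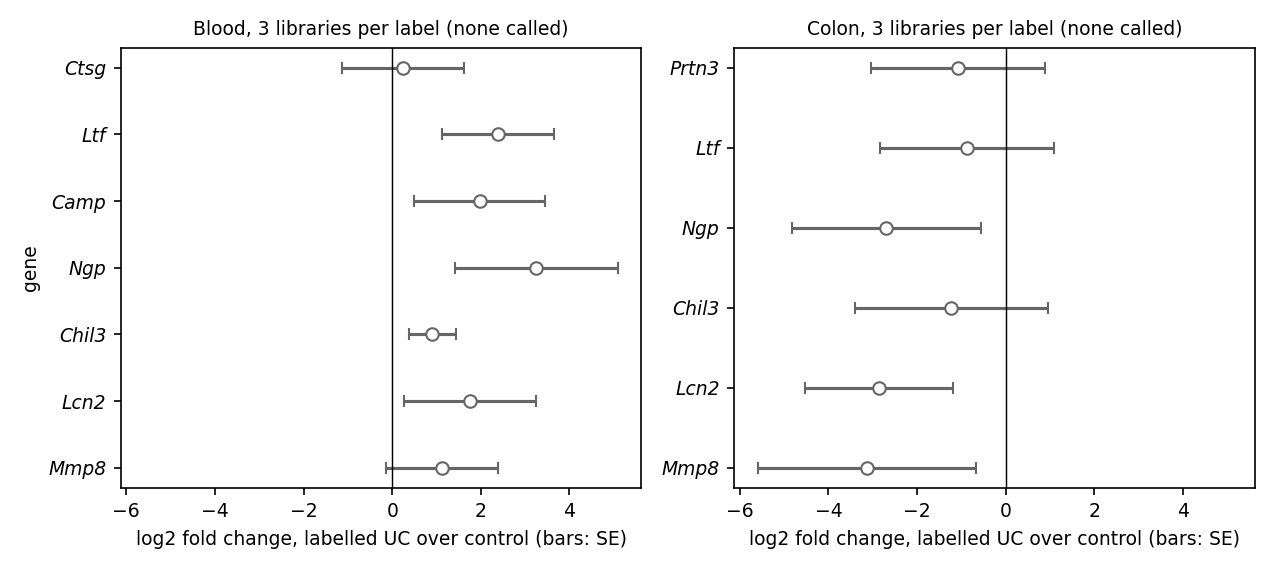
Log2 fold change of libraries labelled UC over those labelled control for the members tested in blood (left) and colon (right), with bars for the standard error and 3 libraries per label. No gene was called; all blood values lie above 0 and all colon values below 0.

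The other genes of the granule pathway were taken from lists, whose counts are to be read against the 20.8% of all tested genes called higher in blood and the 37.7% called lower. Of 15 other secondary, gelatinase and secretory granule genes tested between blood and colon, 9 were called higher in blood and 3 lower. Among those higher were Cybb and Cyba (membrane subunits of the NADPH oxidase) at 3.38 and 2.14, Slc11a1 (a metal ion transporter) at 3.90 and Itgam (integrin alpha M) at 3.42 on the log2 scale. The 3 that were lower were Arg1, Ptx3 and Pglyrp1, the last at -2.28. Pglyrp1 had 7378 to 24190 normalized counts in colon. Of 5 other primary granule, packaging and processing genes tested, 3 were higher in blood, Lyz2 (lysozyme) by 3.86, Srgn (the granule proteoglycan serglycin) by 4.95 and Prss57 (a serine protease of primary granules) by 4.54, and Cd63 had a log2 fold change of -4.43. Prss57 was at 3.06 to 45.3 normalized counts in blood. Bpi was listed at 0 in every library.

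Of 6 protease inhibitor genes, 5 were called lower in blood and none higher, where 37.7% of all tested genes were called lower. Serpinb1a, an inhibitor of elastase, cathepsin G and proteinase 3, had a log2 fold change of -3.07, Serpinb6a -1.24 and Timp2 -2.36. Serpina3n and Timp1 were listed at 0 in all blood libraries. In colon Serpina3n had 18549, 22793 and 51217 normalized counts in mice 1, 7 and 9 and at most 640.9 in the others. Of 8 transcription factor genes 3 were higher in blood, Spi1 by 3.32, Runx1 by 2.89 and Cebpb by 1.62, and 3 were lower, Myb at -2.70, Cebpa at -1.65 and Gfi1 at -1.56, a share for the lower ones near that of all genes. Cebpe, which drives secondary granule genes, was at most 27.9 normalized counts in any library.

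Markers of the cells that could carry these transcripts moved as follows between blood and colon. Of 11 mature neutrophil genes 9 were called higher in blood, with Csf3r at 6.02, Cxcr2 at 7.05 and Retnlg at 6.29, and Ly6g was lower. The summed level of that list in blood was 482518 normalized counts in mouse 1, 371687 in mouse 9, 167518 in mouse 7 and 48115 to 60273 in the others. In mouse 1, S100a8 and S100a9 gave 88578 and 257975 of it. In colon the order differed, with 116339 in mouse 9, 106850 in mouse 8, 96788 in mouse 1, 88820 in mouse 4, 78567 in mouse 7 and 54184 in mouse 2. Mxd1 alone had 46703 to 89079 normalized counts there. Of 7 granulocyte precursor genes tested, 1 was higher and 4 were lower in blood. Ms4a3, a gene of granulocyte precursors, had 11.6 normalized counts in the blood of mouse 1, 4.96 in that of mouse 9 and 0 elsewhere. These came from counts of 11 and 6. The precursor list as a whole did not have this order in blood, with a sum of 24925 in mouse 2 against 22903 in mouse 1. There, 0 of its 8 genes had their 3 highest values in mice 1, 7 and 9. Monocyte and macrophage genes were higher in 5 and lower in 2 of 8, eosinophil genes higher in 2 of 4, mast cell genes lower in 4 of 7. The red cell genes (3 of 3) and the platelet genes (3 of 3) were higher in blood, and colon epithelium (7 of 7) and squamous epithelium genes (3 of 3 tested) were lower. None of the genes in these lists was called between the labels in either tissue, and 1 epididymis or accessory gland gene passed the filter between tissues and was not called. That list summed to 795 normalized counts in colon mouse 1, 517 in mouse 7 and at most 59.2 elsewhere. A single gene, Defb37, made up 789 and 517 of these in mice 1 and 7. Lcn5, Lcn8, Adam7 and Pate4 of the same list were at 0 in every colon library. The part of these cells in the granule values was not tested.

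Outside the members, the gene with the pattern most like the mean of Ltf, Camp, Ngp, Chil3 and Mmp8 over the 6 blood libraries was Osgin1, with a root mean square difference of 0.372 on the centred log2 scale, followed by Crispld2 (0.473), Zfhx3, Asns and Adam8. In colon it was Gpr84 (0.374), followed by Dio2, Cxcl9, Il1r2 and Acod1. For Lcn2 the closest genes in blood were 1700047M11Rik (0.365), Ly6g (0.369), Crispld2, Mmp25 and Mrgpra2b. In colon they were Fpr2 (0.425), Il1rl1, Csf3r, Mmp13 and Wfdc18. For the 4 primary genes in blood they were Tbc1d2 (0.318), Mmp9, Ggt1, Ckap4 and Ntng2, and in colon, where only Mpo and Prtn3 entered, Ifi47 (0.452), Oas3, Cd96, Phf11d and Grp.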

How the data were processed

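RNA sequencing libraries from colon (ribosomal RNA removed) and blood (ribosomal and globin RNA removed) were analysed, 12 in all. Per the study's methods, the authors mapped trimmed reads with STAR to GRCm38, estimated expression with StringTie 1.3.4c on the Ensembl annotation, and derived a deposited table of whole-number counts per gene. These counts are estimates, and their totals per library exceed the paired-end reads per sample that the study reports. The deposited normalized tables of each tissue are a signal, the count divided by 1 size factor per library; this held for 100% of the values above 0, to a relative 1e-06. Each tissue was scaled on its own, so that normalized levels of blood and colon are not on the same scale. Strand-specific counting is not given in the sources used here.

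Counts were tested with edgeR 4.0.16 (filterByExpr, TMM, quasi-likelihood, Benjamini-Hochberg adjustment; R 4.3.3), each tissue alone for the labels and all 12 libraries for the tissues and the difference. TMM factors ran from 0.3475 to 2.32 over all libraries. DESeq2 1.42.0 was an alternative, as were other scaling, no filter, each mouse left out, and the mouse as a replicate block, since both tissues came from the same mice. Deviations of same-numbered libraries from their labelled group means correlated at 0.00682 to 0.221 over 15802 genes. The script was tested on simulated data: of 200 genes changed 4-fold at a dispersion of 0.05, 93% were recovered for the difference between tissues and 100% for the other comparisons. Only well-counted genes were changed there, in groups without odd mice, so this checks the script and not the power for the members. Ngp in blood, at 3.25 between the labels (SE 1.84), was not called. Permutation tests used enumeration of all sign flips (scipy 1.17.1). Levels per kb used the union of exons. Coordinates, exon lengths and overlaps come from GENCODE on GRCm38 and start regions from RefSeq.

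The members and lists were chosen with earlier results of these data known. A gene of the mature neutrophil list is not reported here. The genes named are the 10 members, S100a8 and S100a9, up to 4 called genes of each list by lowest p, and the 5 genes with at least 50 mean normalized counts most like each pattern; others were added after their values were seen. p-values set a difference against the spread between these libraries. The number of columns of per-sample values left unused was 0.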

Additional observations from a re-analysis of the deposited data

Results flagged for a closer look

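In 13 of the 18 sets of 6 libraries per gene and tissue, a single library stood far from the others by Dixon's criterion; each set pools both labels. The rate of about 1 in 20 by chance holds for normally distributed values and separate sets, not for these skewed counts of shared libraries, and in the Elane set and the colon Camp set 5 libraries were at 0. In 9 sets it was the blood of mouse 1. There Mpo had 77.93 normalized counts, Elane 18.95, Prtn3 62.13, Ltf 2825, Camp 631.8, Ngp 2019, Chil3 7964, Lcn2 9234 and Mmp8 24725. Ctsg alone was not set apart in that library. In 4 sets it was the colon of mouse 9, with 28.79 normalized counts for Camp, 296.9 for Ngp, 9155 for Lcn2 and 1964 for Mmp8. The mouse 1 library is labelled UC and that of mouse 9 control.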

How the results depend on the processing

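Of 311 values of members under alternatives, 274 kept direction and call, 17 lost a call and 1 gained one, all of these between blood and colon, and 19 changed sign, none of them called. DESeq2 gave no p for Ngp in any comparison and none for Ltf and Camp between the labels in blood, and these are not among the 311. Called genes numbered 6 with DESeq2 in colon and in blood, 1 in blood with library size only, and 20 (DESeq2) or 0 (replicate block) for the difference between tissues; leaving out 1 mouse gave 0 in colon, 0 to 3 in blood and 1 to 2 for the difference. Signs changed with library size only for Ctsg in blood (-0.42) and Lcn2 between tissues (-0.0057), and with the replicate block for Prtn3 (0.45) and Ltf (1.13). Leaving out 1 mouse, the label effect in colon ran from -3.27 to 1.58 for Ngp and from -6.16 to 0.92 for Chil3, the upper values without mouse 9. In blood it ran from -1.12 to 1.04 for Ctsg, -1.07 to 2.95 for Ltf, -2.18 to 2.56 for Camp, -2.69 to 3.92 for Ngp, -2.47 to 2.73 for Lcn2 and -1.91 to 2.15 for Mmp8, the lower values without mouse 1; Ctsg was also at -0.33 without mouse 8. Between tissues it ran from -2.16 to 2.10 for Prtn3 (0.48 without mouse 9) and -0.47 to 0.34 for Ltf (0.30 without mouse 9), and the Mpo difference from -4.49 to 1.88 (0.24 without mouse 1). Ratios in colon minus blood without mice 2 and 8 were 7.10 (Ltf), 4.82 (Lcn2) and 2.29 (Chil3 over Mmp8), where 4 mice cannot give p below 0.125; leaving out 1 mouse gave 7.30 to 7.73, 5.80 to 7.11, 2.07 to 2.82 and, for Lcn2 over Ltf, -1.58 to -0.62, where 5 mice cannot go below 0.0625. These ratio alternatives were chosen after seeing the data. The causes were not tested. Low counts limit the primary genes, with a count of at most 74 in a library.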
